A study of Rattus norvegicus with 14 samples.

Results

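Livers of orotic acid fed Kyoto rats were compared with livers of orotic acid fed Wistar rats. The comparison took every array labelled as liver after 3 or 14 days of the compound, which is 9 of the 14 arrays: 4 from Kyoto rats (2 at each day) and 5 from Wistar rats (2 at day 3 and 3 at day 14). The rats behind all 9 arrays ate chow with 1% orotic acid freely, and the strain difference was taken within each day and then averaged over both days. Each array measured RNA of the left lateral liver lobe. The supplier was one company for both strains, and the labels give no age, sex or substrain and do not say whether the arrays are separate animals, so the p-values measure the spread between these samples, which may be technical. Kyoto rats on plain chow were not analysed here, so a difference already present in the strains cannot be told apart from a different response to the feed.

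Orotic acid is an intermediate of pyrimidine nucleotide synthesis. Rats fed it in excess develop a reversible fatty liver, because the liver then fails to export triglyceride in lipoproteins. The hepatocyte takes up, makes and burns fatty acids, makes cholesterol, clears drugs and steroids through oxidation and conjugation, and secretes most plasma proteins. Resident macrophages called Kupffer cells line its sinusoids, and many rat liver enzymes differ by strain or by sex.

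The deposited values were array intensities, and every level below is a log2 signal after quantile normalization, with a floor at 6.85 (a signal of 115) below which values have no order. Of 3181 features, 1909 were tested, and a feature passed at an adjusted p under 0.05 in limma. The liver label fitted its markers: 14 hepatocyte markers were tested, none passed in either direction, and their summed signal spanned 202000 to 215000 in fed Kyoto and 194000 to 206000 in fed Wistar arrays. Ratios of 3' to 5' actin probe sets, a measure of RNA integrity, spanned 1.31 to 1.54 in fed Kyoto and 1.06 to 1.7 in fed Wistar arrays, which overlap. A note in the labels gives lot batch 1 for all 4 fed Kyoto arrays and 3 of the 5 fed Wistar arrays and no batch for the other 2. The labels carry no replicate numbers, so arrays of a group are numbered here in their order in the series. One array outside the comparison read unlike the others of its label. Its label is Wistar control, its number here is 2, and it is written below as the array labelled Wistar control 2. At 53 of the 62 features that passed it lay nearer to the fed Kyoto mean, and at 9 nearer to the fed Wistar mean. The other Wistar controls lay nearer to the fed Kyoto mean at 9 and 7 of 62. These 62 were chosen for their strain difference, and whether the label or the liver of that array is the source was not tested. In the fit of the fed strain difference that array counted only through the shared estimate of spread. It also took part in the normalization, the floor, the choice of probe sets and the filter. Fits without it kept those steps unchanged.

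In the mean over days, 62 of 1909 features passed (3.25%), of which 24 were higher in Kyoto (1.26%) and 38 lower (1.99%). Of the 62, 47 carry a gene symbol. The median difference over all tested features was 0.04. Fed Kyoto and fed Wistar arrays did not overlap at 57 of the 62, where 8.85% of all tested features did not overlap. The 62 were selected on these same arrays, so their separation follows from the selection and is no added support. With lot batch as a block 20 features passed, 19 of them among the 62, and with batch 1 arrays alone 21 passed, 18 of them among the 62. Every one of the 62 kept its direction in both of those fits. Leaving out single fed arrays lowered the count to between 12 (without Kyoto day 14 replicate 1) and 58 (without Wistar day 14 replicate 1). The arrays whose absence moved it by more than 1.5 times were Kyoto day 3 replicate 1 (27 features left), Kyoto day 3 replicate 2 (37), Kyoto day 14 replicate 1 (12) and replicate 2 (26), and, at day 3 in Wistar, replicate 1 (26) and replicate 2 (16). Equal binding of the probes to transcripts of either strain was not tested.

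Among features with a gene symbol, the largest falls in Kyoto were Ces2e and Mst1; 4 probe sets without a symbol lay among the 6 largest falls of all. Ces2e, a carboxylesterase that cleaves esters of drugs and lipids, read 10.76 and 10.25 in Wistar livers on day 3 and 10.64, 10.73 and 10.08 by day 14, and lay at the floor of 6.85 on all 4 fed Kyoto arrays. The groups were far apart, and the Kyoto level is known only as a bound. Its difference was -3.65 ± 0.57 (SE), at least 12.5-fold lower, with an adjusted p of 0.00556. Carboxylesterases are a family of near copies, so the share of this signal that belongs to Ces2e is uncertain.

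Mst1 encodes macrophage-stimulating protein, a ligand that hepatocytes secrete into plasma. It read 10.44 and 10.74 in Wistar livers on day 3 and 10.71, 10.87 and 10.95 by day 14, and in Kyoto 7.16 and 6.85 at day 3 and 8.10 and 7.35 at day 14. All Kyoto arrays were low, and 1 of them was at the floor. The difference was -3.35 ± 0.59, at least 10.2-fold (adjusted p = 0.00819). Of the 17 other tested plasma carriers and coagulation proteins, none passed, and the list of 18 had a median difference of -0.06.

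Fmo1, a flavin monooxygenase that oxidizes nitrogen and sulfur in drugs, read 10.38 and 9.68 in Wistar livers on day 3 and 10.07, 10.76 and 9.86 by day 14. Its Kyoto levels were 8.20 and 7.77 at day 3 and 7.40 and 8.73 at day 14, all below the lowest Wistar array. The difference was -2.10 ± 0.33, a 4.3-fold lower level (adjusted p = 0.00556). Aldh1a1, which oxidizes retinaldehyde to retinoic acid, read 11.49 and 11.63 in Wistar livers on day 3, 11.46, 11.26 and 11.43 at day 14, and 9.39, 8.74, 9.83 and 9.54 on the Kyoto arrays in the order of days 3 and 14. All Kyoto arrays were lower, and the difference was -2.10 ± 0.41 (adjusted p = 0.0136). All 9 tested members of the list of flavin monooxygenases and aldehyde enzymes lay lower in Kyoto, as did 867 of 1909 features. Of the 9, Fmo1 and Aldh1a1 alone passed, beside 1.99% of all features passing downward, and the list median was -0.23. Among those that did not pass were Xdh, xanthine dehydrogenase, at -0.51 ± 0.21 and Aldh2, which clears acetaldehyde, at -0.21 ± 0.18. In this list 4 of 9 genes, these included, did not overlap between the groups, beside 8.85% of all tested features.

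Agxt2, a mitochondrial aminotransferase that also breaks down methylated arginines, spanned 10.28 to 10.88 on the fed Wistar arrays and 8.12 to 8.69 on the fed Kyoto arrays. The difference was -2.16 ± 0.38 (adjusted p = 0.00819). Oat, ornithine aminotransferase, was lower by -0.83 ± 0.21 (adjusted p = 0.0417), with overlapping groups. In the opposite direction, Phgdh, the first enzyme of serine synthesis from glucose, read 7.91, 8.73, 7.58, 7.13 and 7.60 in Wistar and 9.25, 9.18, 8.70 and 8.61 in Kyoto, a difference of 1.06 ± 0.21 (adjusted p = 0.0155). Its groups overlapped through Wistar day 3 replicate 2. These were the 3 calls among 37 tested genes of amino acid metabolism, beside 3.25% of all features, and the list median was -0.07. Sds, serine dehydratase, stood at 1.22 ± 0.34 and Got1, cytosolic aspartate aminotransferase, at 0.82 ± 0.22, with adjusted p of 0.0688 and 0.0617.

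Serpina3m, a serine protease inhibitor of a family with close copies, spanned 11.31 to 11.94 in fed Wistar and 9.13 to 10.07 in fed Kyoto arrays, a difference of -2.05 ± 0.40 (adjusted p = 0.0136). Orm1, the acute phase protein orosomucoid, moved the other way by 0.77 ± 0.18 (adjusted p = 0.0295). No other of the 31 tested acute phase and complement genes passed, where 3.25% of all features did, and their median was -0.04. Hp, haptoglobin, stood at -0.01 ± 0.09 and Crp, C-reactive protein, at -0.31 ± 0.17.

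Ephx2, the soluble epoxide hydrolase, read 9.30, 8.57, 8.63, 8.12 and 9.34 in Wistar and 7.21, 7.18, 7.45 and 7.18 in Kyoto. Every Kyoto array was below every Wistar array, with a difference of -1.56 ± 0.32 (adjusted p = 0.017). Ces2e and Ephx2 were the 2 calls among 9 esterases and lipases, both downward, beside 1.99% of all features. Ces1d, the carboxylesterase of the endoplasmic reticulum that mobilizes stored triglyceride, stood at -0.65 ± 0.38 and Lipc, hepatic lipase, at -0.11 ± 0.16. Hsd17b6, which oxidizes steroids and retinol, read 12.01 and 12.07 in Wistar on day 3 and up to 12.29 on day 14, and spanned 9.78 to 11.09 in Kyoto, a difference of -1.54 ± 0.28 (adjusted p = 0.00986). Creg1, a secreted lysosomal glycoprotein, was lower by -1.65 ± 0.36 (adjusted p = 0.0243), from 9.86 to 10.93 in Wistar to 8.25 to 9.72 in Kyoto. The cell cycle regulator Ccnd2, cyclin D2, spanned 8.19 to 8.76 in Wistar and was at the floor on 3 of the 4 Kyoto arrays, so its -1.43 ± 0.28 (at least 2.69-fold, adjusted p = 0.0136) is a bound. Of the other 10 tested cell cycle genes none passed.

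Several conjugation and lipid enzymes passed with smaller differences, outside the 15 largest. Papss2, which makes the sulfate donor for sulfotransferases, was lower by -1.05 ± 0.24 (adjusted p = 0.0275), Glyatl2, a glycine acyltransferase relative, by -0.81 ± 0.17 (adjusted p = 0.0176), and Ugt1a5, a glucuronosyltransferase that shares its 3' exons with its gene cluster, by -1.10 ± 0.28 (adjusted p = 0.0423). None of 25 glutathione and conjugation enzymes of the list passed. Acsl1, which activates long chain fatty acids, was lower by -0.83 ± 0.19 (adjusted p = 0.0309). It was the only call among 9 genes of lipid handling and droplets, beside 1.99% of all features passing downward. Plin2, the main coat protein of liver lipid droplets, stood at 0.30 ± 0.19, Fabp1, the liver fatty acid carrier, at 0.21 ± 0.20, and Fabp5 at 0.38 ± 0.20.

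Single liver genes are followed from array to array in the plot of 8 genes named here, where the open points are arrays that did not enter the strain difference.

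**Figure D1:**
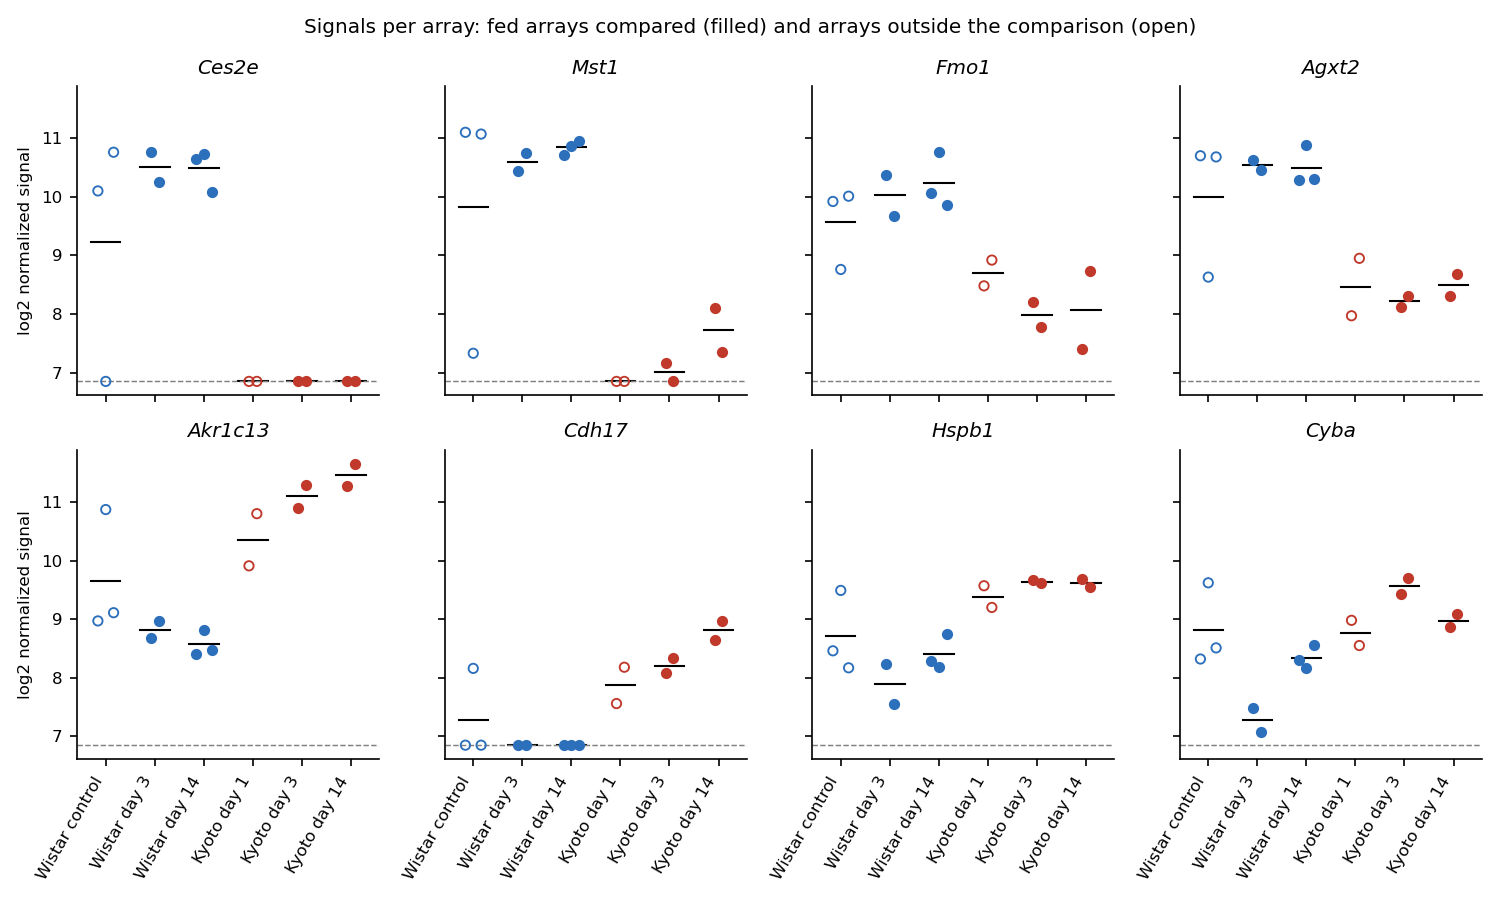
Log2 normalized signal (vertical axis) of 4 genes low and 4 genes high in fed Kyoto liver on every array, by group (horizontal axis); filled points are the 9 fed arrays, open points the other 5, bars the group means, and the dashed line the floor at 6.85. Ces2e lies at the floor on all 4 fed Kyoto arrays and between 10.08 and 10.76 on the fed Wistar arrays, while Cdh17 shows the opposite pattern.

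Among the 40 gene lists, cholesterol synthesis held the most calls. The pathway runs from acetyl-CoA through mevalonate and the isoprenoid diphosphates to squalene and lanosterol, and its enzymes are known to be induced together by sterol regulatory element binding protein (SREBP) when cell sterol is low. Of 22 listed enzymes 13 were tested; 11 lay lower in Kyoto, as did 867 of 1909 features. Of the 13, 4 passed downward, beside 1.99% of all features, and none upward. The list median was -0.62, beside 0.04 over all tested features.

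The early enzyme Acat2, cytosolic acetoacetyl-CoA thiolase, read 9.80 and 10.04 in Wistar livers on day 3 and 10.57, 9.97 and 9.75 by day 14, against 8.95 and 8.51 and then 8.13 and 8.86 in Kyoto. The groups did not overlap, with a difference of -1.39 ± 0.29 (adjusted p = 0.017). Idi1, isopentenyl diphosphate isomerase, read 9.97, 9.53, 10.11, 9.65 and 8.32 in Wistar and 7.89, 8.40, 7.12 and 7.06 in Kyoto. The groups overlapped through Wistar day 14 replicate 3, at 8.32, and Kyoto day 3 replicate 2, and the difference was -1.94 ± 0.40 (adjusted p = 0.0176). Late enzymes acting on lanosterol followed: Cyp51, the lanosterol demethylase, spanned 10.77 to 11.14 in Wistar and 8.93 to 10.28 in Kyoto, a difference of -1.18 ± 0.23 (adjusted p = 0.0136). Msmo1, the methylsterol monooxygenase that acts later in the pathway, read 11.37 and 11.82 in Wistar livers on day 3 and 12.23, 11.62 and 11.46 by day 14. In Kyoto it read 10.98 and 11.10 and then 9.48 and 10.19. All Kyoto arrays were lower, day 14 most, with a mean difference of -1.25 ± 0.25 (adjusted p = 0.0155).

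Within this list the measured gap was larger at day 14 than at day 3, although no member passed a test of day dependence. The list median was -0.21 at day 3 and -0.80 at day 14, beside 0.05 and 0.02 over all tested features. Msmo1 differed by -0.55 ± 0.37 at day 3 and by -1.94 ± 0.34 at day 14. Sqle, squalene epoxidase, a rate-setting step, read 9.27 and 9.15 in Wistar at day 3, where the Kyoto arrays at 8.78 and 9.62 lay on either side. At day 14 it read 10.03, 8.66 and 8.94 in Wistar and 6.95 and 7.29 in Kyoto, a difference of -2.09 (adjusted p below the threshold for that day alone), while its mean over days, -1.05 ± 0.31, did not pass (adjusted p = 0.081). Nsdhl, a later sterol dehydrogenase, stood at -0.21 and -1.02 at the respective days, and Lss, which closes the lanosterol rings, at -1.06 and -0.80. The day dependence of Msmo1 and Sqle had unadjusted p of 0.0153 and 0.00459 and adjusted p of 0.857 and 0.85, neither of which passed. Fdps and Fdft1, farnesyl diphosphate and squalene synthase, were the members not lower in Kyoto, at 0.32 ± 0.24 and 0.13 ± 0.29.

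**Figure D2:**
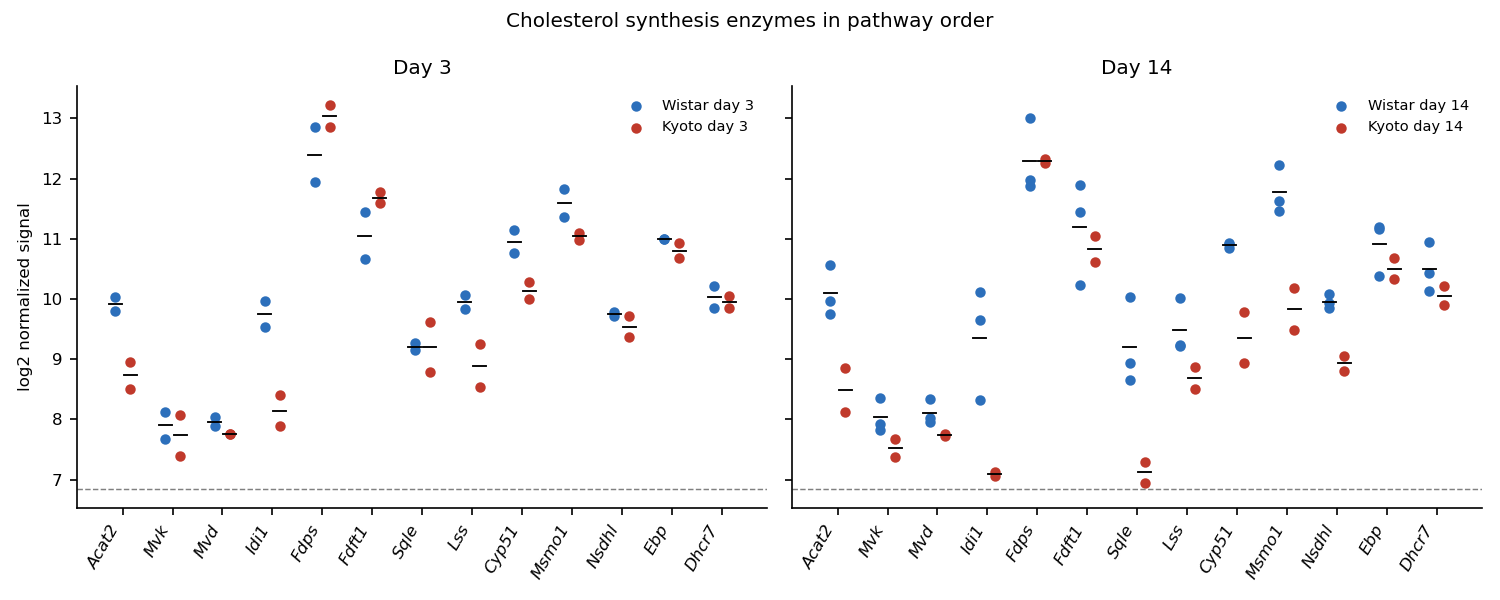
Log2 normalized signal (vertical axis) of the 13 tested cholesterol synthesis enzymes in pathway order (horizontal axis) on the fed Wistar (blue) and fed Kyoto (red) arrays at day 3 (left) and day 14 (right); points are arrays, bars are means, and the dashed line is the floor. At day 14 Sqle and Idi1 read 6.95 to 7.29 in Kyoto, and Fdps and Fdft1 overlap between strains.

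Sterol genes are known to share sterol regulatory elements and CCAAT boxes, the latter bound by NF-Y, so the members that passed are shown with their start regions. The sequences are from RefSeq on GRCr8, and run on the gene's strand from 30 bases before the first marked box to 30 bases past the last one, with CCAAT, or ATTGG where the box lies on the opposite strand, in capitals. They lie at chr16:29746910-29747079 (+ strand) for Msmo1 and chr17:66547525-66547620 (- strand) for Idi1.
Msmo1: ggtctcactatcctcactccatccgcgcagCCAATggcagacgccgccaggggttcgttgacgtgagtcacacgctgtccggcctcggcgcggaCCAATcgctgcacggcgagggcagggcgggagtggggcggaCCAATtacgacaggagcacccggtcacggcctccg
Idi1: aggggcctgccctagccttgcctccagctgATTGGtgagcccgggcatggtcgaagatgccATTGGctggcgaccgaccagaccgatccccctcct
The search read both strands of a window from 250 bases before to 50 bases after each start. CCAAT was found in 8 of the 11 tested sterol enzymes with a window, and in 37.5% of all 33469 windows. Among the members that passed it was in Msmo1 and Idi1 and not in the windows of Cyp51 and Acat2. The sterol regulatory element searched, TCACNCCAC, was in none of the 11 and in 1.12% of all windows, which says only that those letters are not in these windows.

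Other lipid pathways gave fewer calls. None of 9 tested genes of fatty acid and triglyceride synthesis passed, although 8 lay lower in Kyoto, as did 867 of 1909 features, with a median of -0.25. Gpam, the enzyme that starts glycerolipid synthesis, read 9.46 and 10.55 in Wistar against 7.18 and 8.35 in Kyoto at day 3 (-2.24), and 9.39, 8.14 and 9.45 against 9.09 and 9.04 at day 14 (0.08). Its mean, -1.08 ± 0.35, had an adjusted p of 0.115. Acsl5, another fatty acid activating enzyme, stood at -0.82 ± 0.28 (adjusted p = 0.143). It was the 1 gene of the 9 without overlap between the groups, beside 8.85% of all tested features. Fasn, fatty acid synthase, stood at -0.19 ± 0.42. Of 13 apolipoprotein and VLDL assembly genes, which serve the export step that orotic acid disturbs, none passed and the median was 0.05: Apob, the structural protein of VLDL, stood at 0.27 ± 0.30, and Apoc4 at 0.71 ± 0.21 (adjusted p = 0.0893).

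Mitochondrial fatty acid oxidation gave no call among 18 genes (median -0.02). The peroxisomal list gave 2 calls of 16 tested, both upward, beside 1.26% of all features, with a median of -0.05. Acox2, the peroxisomal oxidase of bile acid precursors, read 10.69, 10.69, 10.84, 11.13 and 10.76 in Wistar and 12.17, 11.84, 12.49 and 12.18 in Kyoto. The difference was 1.37 ± 0.30 (adjusted p = 0.0258). Dao, the peroxisomal oxidase of D-amino acids, spanned 7.93 to 9.20 in Wistar and 9.35 to 9.70 in Kyoto (1.14 ± 0.27, adjusted p = 0.0337). Neither overlapped between the groups. Ehhadh and Acaa1b, enzymes of the straight chain pathway, stood at -0.46 ± 0.29 and -0.01 ± 0.27. Abcc2, the canalicular pump for conjugated bilirubin, was higher by 1.21 ± 0.31 (adjusted p = 0.0455), from 9.46 to 9.78 in Wistar to 10.60 to 11.08 in Kyoto. It was the 1 call among 14 bile acid genes, beside 1.26% of all features passing upward. Of those genes, Akr1d1 and Baat stood at -0.81 ± 0.22 and -0.73 ± 0.20 with adjusted p of 0.0603 and 0.0609.

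The largest rise was Akr1c13, an aldo-keto reductase of a cluster of near copies, so its signal may include relatives. It read 8.67 and 8.97 in Wistar livers on day 3 and 8.41, 8.82 and 8.48 by day 14, and in Kyoto 10.90 and 11.29 at day 3 and 11.27 and 11.65 at day 14. The groups were well apart, with a difference of 2.58 ± 0.34, a 5.98-fold higher level (adjusted p = 0.00235). Its relatives on the array, Akr1c14 and Akr1c3, stood at -0.37 ± 0.26 and -0.05 ± 0.24.

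Cdh17 encodes liver-intestine cadherin, an adhesion protein. It stayed at the floor in each of the 5 fed Wistar livers and read 8.08 and 8.33 at day 3 and 8.65 and 8.97 at day 14 in Kyoto, at least 3.16-fold higher (1.66 ± 0.27, adjusted p = 0.00588). It was listed here among cholangiocyte markers, of which 7 were tested and all 7 lay higher in Kyoto, as did 1042 of 1909 features. Their summed signals were 6510 to 8080 in fed Kyoto against 4850 to 5680 in fed Wistar arrays. Only Cdh17 passed, beside 1.26% of all features passing upward. The defining markers Krt19 and Epcam were at the floor on all 9 fed arrays. Cela1, a pancreatic type elastase, read 8.08, 7.42, 8.11, 8.05 and 7.92 in Wistar and 9.91, 9.50, 9.43 and 9.27 in Kyoto, a difference of 1.64 ± 0.29 (adjusted p = 0.00819). The other tested acinar marker, Amy2a3 or amylase, stood at -0.11 ± 0.35.

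Hspb1 and Nupr1 were the stress genes that passed. Hspb1, the small heat shock protein HSP27, read 8.24 and 7.55 in Wistar livers on day 3 and 8.29, 8.18 and 8.75 by day 14, and between 9.55 and 9.69 on all Kyoto arrays. The Kyoto arrays were nearly level, with a difference of 1.48 ± 0.26 (adjusted p = 0.00819). None of the other 10 tested cytosolic chaperones passed, and the list median was 0.08. Nupr1, a stress-induced nuclear protein, read 8.12, 9.49, 9.40, 8.67 and 7.82 in Wistar and 10.91, 10.05, 10.23 and 9.82 in Kyoto (1.54 ± 0.37, adjusted p = 0.0373). It was counted with the chaperones and stress genes of the endoplasmic reticulum. Of these, 14 of 18 were higher in Kyoto, as were 1042 of 1909 features, with a median of 0.29. In that list 5 did not overlap between the groups, beside 8.85% of all tested features. Only Nupr1 passed, beside 1.26% of all features passing upward. Summed signals of the list spanned 59800 to 69600 in fed Kyoto and 33200 to 74000 in fed Wistar arrays. Hspa5, or BiP, the main chaperone of the endoplasmic reticulum, stood at 0.69 ± 0.32. The oxidase Ero1b stood at 1.03 ± 0.29 (adjusted p = 0.0662) and the chaperone Hyou1 opposite at -1.42 ± 0.41 (adjusted p = 0.0724).

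Nupr1 is known as a target of ATF4 and C/EBP proteins, so its start region is shown, at chr1:190645919-190645987 (- strand, RefSeq, GRCr8), with a match to the composite element TGATGNAAN, read on the opposite strand, in capitals.
Nupr1: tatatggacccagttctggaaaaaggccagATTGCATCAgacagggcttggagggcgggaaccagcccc
The match spans -56 to -48 from the start. These letters occur in 3.97% of all windows on either strand, and in 2 of the 16 tested members of the list with a window.

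Of 7 tested Kupffer cell and macrophage markers 3 passed upward, beside 1.26% of all features. All 7 lay higher in Kyoto, as did 1042 of 1909 features, and the median was 0.59. Ctss, cathepsin S, a protease of antigen presenting cells, read 10.23, 10.24, 9.99, 10.15 and 9.85 in Wistar and 11.16, 11.03, 10.79 and 10.86 in Kyoto (0.84 ± 0.17, adjusted p = 0.0136). Clec4f, the lectin that marks rodent Kupffer cells, spanned 9.44 to 9.84 in Wistar and 10.17 to 10.54 in Kyoto (0.82 ± 0.20, adjusted p = 0.0416), and Lgals3, galectin 3 of macrophages, 7.52 to 7.92 and 8.23 to 8.74 (0.82 ± 0.19, adjusted p = 0.0318). None of these 3 overlapped between the strains. Their neighbours on the list, C1qb and C1qc of complement C1q, stood at 0.59 ± 0.18 and 0.39 ± 0.22 and Cd14 at 0.18 ± 0.27. Summed over the list, signals were 7130 to 9980 in Kyoto and 5190 to 7010 in Wistar. In these bulk samples more cells of a type and more RNA per cell cannot be told apart.

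Cyba, the p22phox subunit of the phagocyte NADPH oxidase, was also higher (1.46 ± 0.25, adjusted p = 0.00819). It read 7.48 and 7.08 in Wistar against 9.43 and 9.70 in Kyoto at day 3, and 8.30, 8.16 and 8.56 against 8.86 and 9.08 at day 14. The groups did not overlap on either day, and the difference went from 2.28 ± 0.37 at day 3 to 0.63 ± 0.34 at day 14. The interaction had an unadjusted p of 0.00562 and an adjusted p of 0.857.

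Interferon response genes, which cells switch on after viral or innate signals, lay higher for 10 of 13, beside 1042 of 1909 features, with a median of 0.47. Upward calls were 2 of the 13, beside 1.26% of all features. Irf7, a transcription factor of that response, was at the floor on both Wistar day 3 arrays and read 7.61, 7.14 and 7.30 at day 14, against 8.51, 8.54, 8.17 and 8.57 in Kyoto. The groups did not overlap, at 1.35 ± 0.32 or at least 2.55-fold (adjusted p = 0.0359). Mx2, an antiviral GTPase, read 6.85, 7.38, 8.12, 6.85 and 7.37 in Wistar and 8.36, 8.56, 9.06 and 9.23 in Kyoto (1.52 ± 0.36, adjusted p = 0.0337). Psmb8 and Psmb9 of the immunoproteasome stood at 0.89 ± 0.27 and 0.75 ± 0.24, both larger at day 3 (1.37 and 1.27) than at day 14 (0.41 and 0.22), and Irf1 stood at -0.51 ± 0.20. The macrophage list moved in the same direction as this list, and its part in the interferon difference was not tested.

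The start region of Irf7, at chr1:205800053-205800122 (- strand, RefSeq, GRCr8), holds a match to the interferon stimulated response element (GAAA repeats spaced by 2 bases) on the opposite strand, shown in capitals because this gene is both a member and a regulator of the response.
Irf7: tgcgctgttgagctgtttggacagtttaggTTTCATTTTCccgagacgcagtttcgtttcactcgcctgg
It spans -69 to -60 from the start. That element was in 8 of the 12 tested interferon genes with a window and in 3.92% of all windows. The match is a description of the sequence and does not show binding.

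RT1-DMb, which helps load peptides on class II molecules, spanned 7.96 to 8.83 in Wistar and 9.01 to 9.75 in Kyoto (0.97 ± 0.23, adjusted p = 0.0318). It was the only call among 8 tested class II and lymphocyte genes, beside 1.26% of all features passing upward. RT1-Da and Cd74, which form and escort the class II molecule itself, stood at -0.22 ± 0.26 and -0.09 ± 0.24. Kdr and Lyve1, markers of sinusoidal endothelium, stood at 0.64 ± 0.20 and 0.56 ± 0.23 (adjusted p of 0.106 and 0.262), and none of 13 stellate cell and fibroblast genes passed.

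Rat liver is known for enzymes that differ between males and females under growth hormone control, and the labels do not give the sex. Of 11 tested male-predominant genes 9 lay lower in Kyoto, beside 867 of 1909 features, and 2 passed downward, beside 1.99%, with a median of -0.37. Cyp2a2, a steroid hydroxylase with close relatives, read 11.92 to 12.24 in Wistar and 10.25 to 10.77 in Kyoto (-1.53 ± 0.29, adjusted p = 0.0127), and Car3, carbonic anhydrase 3, 10.92 to 11.99 and 9.91 to 10.50 (-1.10 ± 0.23, adjusted p = 0.0171). Cyp3a18 and Cyp3a2 did not overlap between the strains but did not pass, at -1.69 ± 0.51 and -0.83 ± 0.33. In this list 4 of 11 genes did not overlap, beside 8.85% of all tested features. Cyp2c11, the most abundant male form, was level: 13.54 to 13.87 in Wistar and 13.58 to 13.78 in Kyoto (0.01 ± 0.13).

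Of 11 tested female-predominant genes 9 lay higher in Kyoto, as did 1042 of 1909 features, and none passed, with a median of 0.21. Cyp3a9 read 8.05, 7.93, 9.70, 9.30 and 7.50 in Wistar and 9.58, 9.91, 10.89 and 11.54 in Kyoto, a difference of 2.07 ± 0.56 that missed the threshold (adjusted p = 0.0609). Cyp2c12, the female form of its family, was at the floor on 3 Wistar arrays and read 7.25 and 8.46 on the others, against 7.74, 7.72, 9.14 and 9.17 in Kyoto (1.26 ± 0.34, adjusted p = 0.0626). Both overlapped between the strains, through single Wistar day 14 arrays. Within the growth hormone list, Igfals, the liver-made subunit that holds insulin-like growth factor in plasma, was higher by 0.90 ± 0.20 (adjusted p = 0.0248), from 10.41 to 10.92 in Wistar to 11.17 to 11.80 in Kyoto. Ghr, the receptor itself, stood at 0.96 ± 0.32 (adjusted p = 0.133) and Igf1 at 0.22 ± 0.25. Over all 30 microsomal P450 genes the median was 0.03, and Cyp2a2 was the only call, beside 3.25% of all features.

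One glucuronosyltransferase feature was picked out after its values were seen. Ugt2b, a probe set shared by a family that conjugates steroids, read 12.85, 12.20, 12.79 and 12.01 on 4 fed Wistar arrays but 8.28 on Wistar day 3 replicate 1, and 8.39, 8.75, 8.58 and 8.77 on the fed Kyoto arrays. So 1 fed Wistar array stood at the Kyoto level, and the difference of -2.83 ± 0.80 did not pass (adjusted p = 0.0688). Outside the comparison it read 7.65 and 8.76 on the Kyoto day 1 arrays, 12.15 and 12.20 on Wistar controls 1 and 3, and 8.94 on the array labelled Wistar control 2.

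Several lists gave no call. No gene of oxidative phosphorylation and the citric acid cycle passed among 36 (median 0.09). None of 35 ribosomal proteins passed (median 0.17), and 27 of them lay higher in Kyoto, as did 1042 of 1909 features. None passed of 17 glycolysis and gluconeogenesis genes (-0.17), 19 oxidant defence genes (0.01) and 5 urea cycle genes (0.03). Ndufb8, a complex I subunit outside that list of 36, did pass at 0.79 ± 0.18 (adjusted p = 0.0275). Of 8 pyrimidine and purine genes, the pathway the fed compound belongs to, none passed. Dpys and Dpyd, which break pyrimidines down, stood at -0.53 ± 0.17 and 0.76 ± 0.32. In this list 3 of 8 genes, these included, did not overlap between the groups, beside 8.85% of all tested features. Further calls were Ptprs, a receptor phosphatase, at 1.18 ± 0.23 (adjusted p = 0.0136), and Cul2, a scaffold of ubiquitin ligases, at -1.24 ± 0.22 (adjusted p = 0.00915). Bad, which promotes cell death, passed at 1.09 ± 0.27 (adjusted p = 0.0405). Its groups overlapped, and 1 Wistar array was at the floor. Nedd4, a ubiquitin ligase, Ap1s1, a clathrin adaptor subunit, and Plpp3, a lipid phosphatase, also passed, at -0.95 ± 0.22, -1.08 ± 0.26 and -0.69 ± 0.17.

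**Figure D3:**
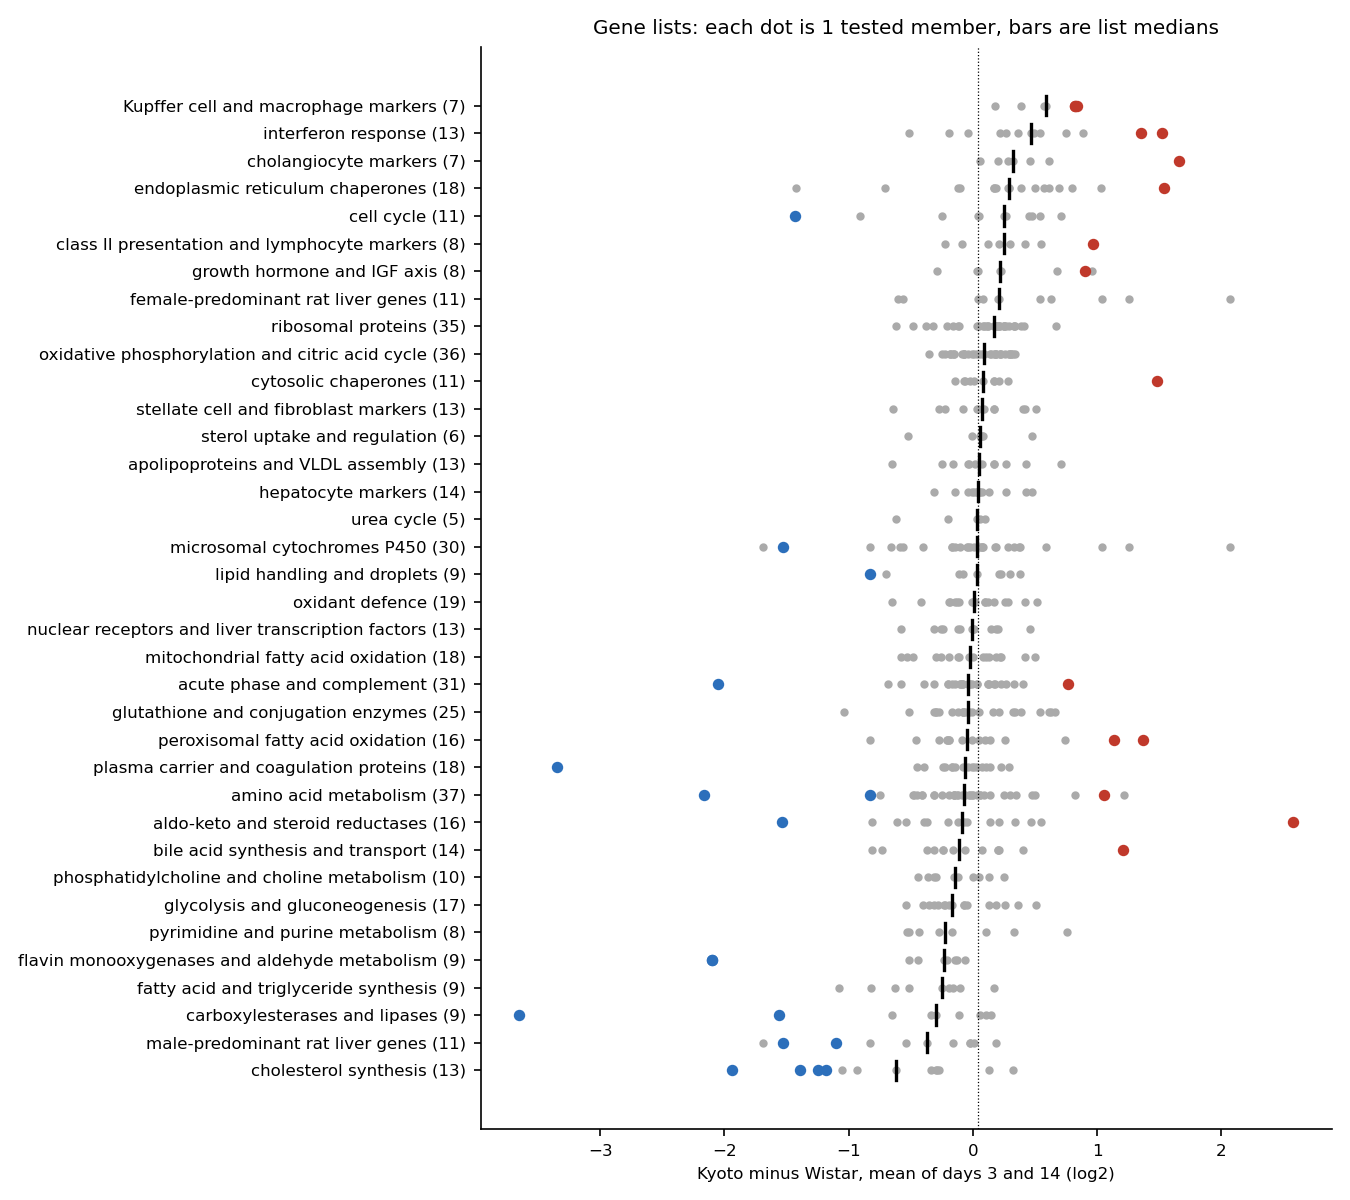
Differences between fed Kyoto and fed Wistar liver in log2 units (horizontal axis) for lists with at least 5 tested members (vertical axis, number tested in brackets); dots are genes, coloured where they passed (red higher, blue lower in Kyoto), black bars are list medians and the dotted line is the median of all features, 0.04. Cholesterol synthesis lies lowest, at -0.62, and the Kupffer cell and macrophage markers highest, at 0.59.

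Each day was also tested alone, with fewer arrays. At day 3, 4 features passed (0.21%), among them Cyba, higher in Kyoto, and Cul2, lower, at -1.78 ± 0.33 (adjusted p = 0.0498). At day 14, 13 passed (0.681%). Those with a symbol were Akr1c13 and Cdh17 upward and Ces2e, Fmo1, Msmo1, Sqle, Cyp51 and Gng10, a G protein subunit, downward. Without the array labelled Wistar control 2 the counts were 33 at day 3 and 34 at day 14. Without single fed arrays they spanned 0 to 6 at day 3 and 0 to 9 at day 14: at day 3, 0 were left without Kyoto day 3 replicate 2 or either Wistar day 3 array, and 1 without Kyoto day 3 replicate 1, either Kyoto day 14 array or Wistar day 14 replicate 1. At day 14, 0 were left without either Kyoto day 14 array, Wistar day 14 replicate 1 or Wistar day 14 replicate 2, and 4 without any single day 3 array. With lot batch as a block 1 feature passed at day 3 and 0 at day 14.

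The size of the strain difference did not pass as day dependent for any feature. In limma's interaction test 0 of 1909 passed (0%), 99 had an unadjusted p under 0.05 (5.19%), and the smallest adjusted p was 0.377. That smallest p belonged to Rpl5, a ribosomal protein, which read 8.56 and 8.75 in Wistar against 6.85 and 6.92 in Kyoto at day 3, and 8.53, 7.38 and 8.34 against 8.69 and 8.54 at day 14. Onecut1, a hepatocyte and biliary transcription factor, differed by -0.85 at day 3 and 1.77 at day 14, and Jun, an immediate early factor, by -0.71 and 1.67. The bicarbonate carrier Slc4a4 went from -1.35 to 0.34, and Prkag1, a subunit of the energy sensor AMPK, from 0.61 to -0.79. Among the 62 features, Msmo1, Cul2, Acsl1 and Cyba had an interaction p under 0.05 before adjustment. Acsl1 and Cul2 were further apart at day 3 (-1.32 and -1.78) than at day 14 (-0.35 and -0.70), and Msmo1 the reverse.

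**Figure D4:**
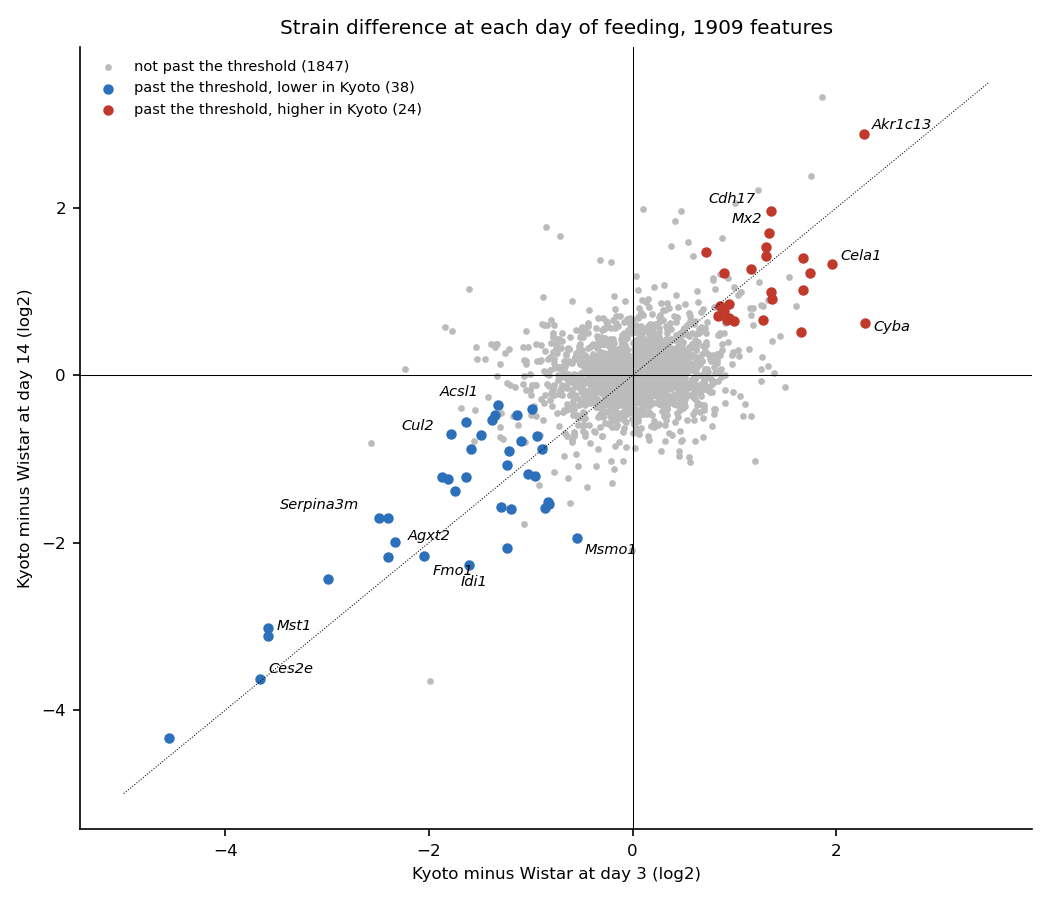
Strain difference at day 3 (horizontal axis) against day 14 (vertical axis), both Kyoto minus Wistar in log2 units, for 1909 features; coloured points passed in the mean of both days and the dotted line marks equal differences. Ces2e lies near that line, while Msmo1 (-0.55 and -1.94) and Cyba (2.28 and 0.63) lie off it.

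Some genes had more than 1 probe set, which gives another look at the same transcript on the same arrays. Of the 47 named genes that passed, 15 had others, 26 in all, of which 25 pointed the same way and 19 were at least 0.5 times as large. Cyp51 had 4 others, all lower in Kyoto, from -1.08 to -0.74. The second Cdh17 probe set gave 1.22 ± 0.20 and the second Msmo1 set -1.23 ± 0.40. RT1-DMb had a second set at 1.15 ± 0.24, with no overlap between the groups, and another near the floor at 0.07 ± 0.06, and the other Irf7 set, also near the floor, stood at 0.06 ± 0.06. Sets well above the floor with hardly any difference were 1 of 3 others for Acsl1 (-0.01 ± 0.29) and 1 of 3 others for Hspb1 (0.07 ± 0.27). The single opposite one was a Ptprs set at -0.12 ± 0.14, also near the floor. Of the 62 features 15 have no symbol here, as their probe sets map to several genes or none: the largest fall was M91235_f_at at -4.45 ± 0.66, and the smallest adjusted p, 0.000257, belonged to rc_AA852046_s_at at -2.71 ± 0.28. Among those higher, rc_AA875500_at stood at least 2.68-fold higher, with 3 Wistar arrays at the floor.

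The 5 arrays outside the comparison, 2 from Kyoto rats after 1 day and 3 labelled Wistar control, share no array with it, but they differ from each other in feed as well as strain. Kyoto day 1 minus Wistar control had the same sign as the fed difference at 56 of the 62 features, beside 58.3% of all tested features, and 14 features passed there (0.733%), 4 of which were among the 62. Without the array labelled Wistar control 2 the same sign held at 61 of 62, beside 61.9% of all, and 42 passed, 20 of them among the 62 and in the same direction. That array was left out because it lay at the Kyoto level at most of these features, so the closer match at the 62 follows in part from that choice and is no independent support. In that fit Ces2e differed by -3.58 ± 0.31, Mst1 by -4.24 ± 0.28, Aldh1a1 by -2.65 ± 0.35 and Serpina3m by -2.52 ± 0.29. Phgdh (1.66 ± 0.30), Cela1 (1.44 ± 0.29) and Acox2 (1.22 ± 0.29) passed upward.

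The array labelled Wistar control 2 read 6.85 for Ces2e, 7.33 for Mst1, 8.16 for Cdh17 and 10.87 for Akr1c13, each near the Kyoto levels. The other controls read 10.10 and 10.76 for Ces2e, 11.10 and 11.07 for Mst1, and 8.97 and 9.11 for Akr1c13. The Kyoto day 1 arrays lay nearer to the fed Kyoto mean at 55 and 51 of the 62. Sterol enzymes were uneven on those arrays. Msmo1 read 11.68 and 11.40 on the Kyoto day 1 arrays and 11.79 and 11.67 on Wistar controls 1 and 3, and Cyp51 9.86 and 10.76 against 10.93 and 10.58, whereas Idi1 read 6.85 and 8.15 against 9.19 and 8.94.

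**Figure D5:**
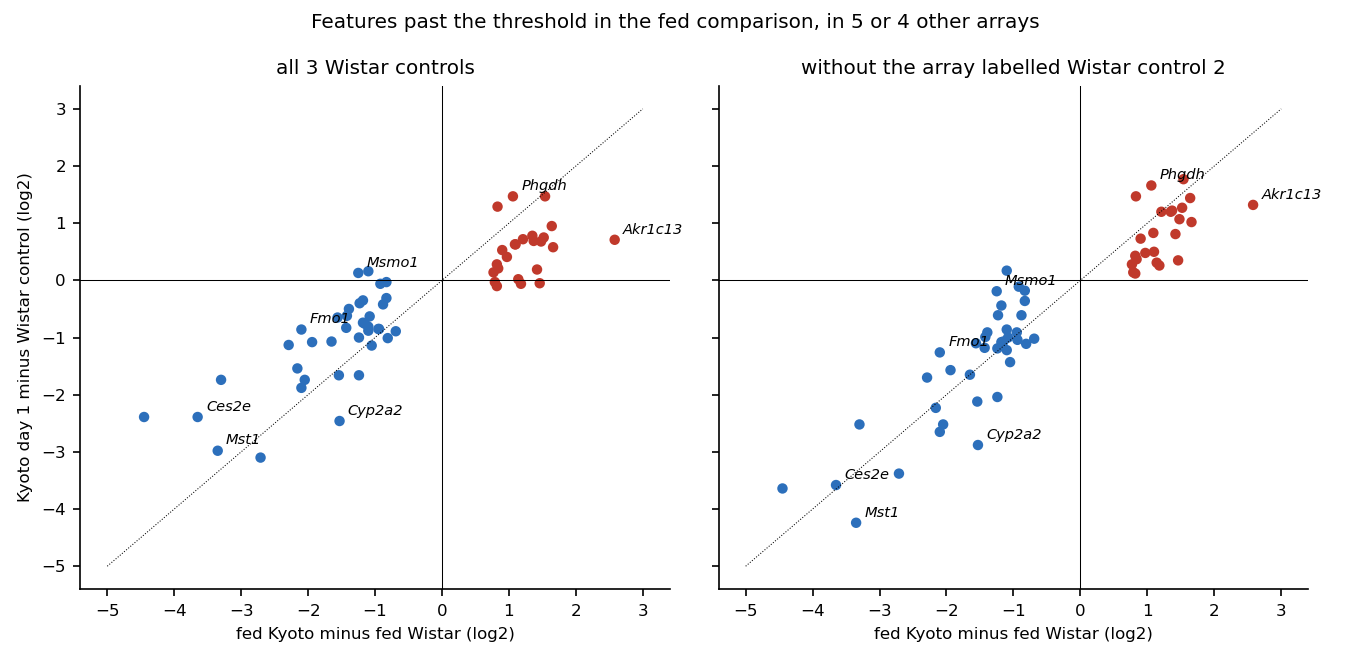
The fed strain difference (horizontal axis) against Kyoto day 1 minus Wistar control (vertical axis), in log2 units, for the 62 features that passed in the fed comparison (red higher, blue lower in fed Kyoto), with all 3 controls (left) and without the array labelled Wistar control 2 (right). The sign was the same at 56 features on the left and 61 on the right; the dotted line marks equal differences.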

How the data were processed

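Liver RNA was hybridised to 14 Affymetrix arrays. The deposited values are probe set intensities which the authors computed in MAS5 (per the submitters' processing notes), with scaling and version not given in the sources used here. The extraction protocol also names Wistar day 1 and Kyoto control livers, not analysed here. Medians were equal on 11 of the 14 arrays. Of 4502 rows, 24 controls and 375 rows with a blank on any of 3 arrays were dropped. Intensities were quantile normalized, floored at the 25th percentile (115) and taken to log2. For a gene with several probe sets the one with the highest mean was kept. The upper 60% of 3181 features by mean, 1909, were tested in limma 3.58.1 (R 4.3.3) on all 14 arrays with 6 group means, 8 residual degrees of freedom, an intensity trend and Benjamini-Hochberg adjustment. Each fold is a difference of log2 values above that floor and understates the change of dim genes. No counts underlie array intensities, so the number of arrays limits the precision. Symbols came from the platform annotation: 3700 probe sets had 1 symbol, 229 several and 573 none. Named genes were the 15 largest changes each way that passed with a symbol, the 5 largest or smallest-p genes for each day and the interaction, and up to 4 members of each list that passed, or the 2 with the smallest p; other list members, and other calls such as Papss2, Glyatl2, Ugt1a5, Ndufb8, Nedd4, Ap1s1 and Plpp3, were named after their values were seen. The members and lists were chosen with earlier results of these data known. Tested on simulated data over 1909 features, the test recovered 28% of features changed 1.5-fold, 74% at 2-fold and 98% at 4-fold in the mean comparison. It also called 10 unchanged features. There 50 features were changed at each of 1.5-, 2-, 4- and 8-fold, more in all than passed in the data. The simulated noise was independent between features and had no floor. Recovery in the data themselves was therefore not measured and may be lower. Alternatives varied scaling, floor, filter, probe set choice, arrays, lot batch and the variance model. Promoter windows were RefSeq's on GRCr8.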

Additional observations from a re-analysis of the deposited data

Results flagged for a closer look

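Dixon's test on the fed arrays of each named gene that rose or fell most marked 5 of 60 groups of arrays. Chance marks about 1 in 20 groups of untied values that share a mean. Here both days were pooled and some values were tied at the floor, so that rate need not hold. Ephx2 on Kyoto day 14 replicate 1 read 7.45, above the next Kyoto array at 7.21. Hsd17b6 on Wistar day 14 replicate 2 read 12.29, above 12.07. Ccnd2 on Kyoto day 3 replicate 2 read 7.17 while the other Kyoto arrays were at the floor, a tie that marks any differing value. Cela1 on Wistar day 3 replicate 2 read 7.42, below 7.92. Irf7 on Kyoto day 14 replicate 1 read 8.17, below 8.51. In none of the 5 did the marked array overlap the other strain.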

How the results depend on the processing

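No paired analysis was possible because the labels carry no replicate numbers, so a replicate block could not be formed. The count in the mean over days, 62, was 1 with all features tested (the cause was not tested), 40 with the upper 40% tested, 103 with only the 9 fed arrays in the fit, 20 with lot batch as a block, 21 with batch 1 arrays alone and 135 with array weights; leaving out single fed arrays gave 12 to 58. The day 3 count, 4, was 1 with the floor at the 40th percentile, with all features, with the upper 40% and with the lot block, 2 with every probe set on its own, 48 with only fed arrays, 33 without the array labelled Wistar control 2, 0 in batch 1 alone, 45 with array weights, and 7 with features above the floor on at least 7 arrays, an alternative chosen after seeing the data; single fed arrays left out gave 0 to 6. The day 14 count, 13, was 6 with a common trimmed mean, with the upper 40% and with every probe set on its own, 5 with the floor at the 10th percentile and without an intensity trend, 0 with all features and with the lot block, 33 with only fed arrays, 34 without Wistar control 2, 1 in batch 1 alone and 32 with array weights; single fed arrays left out gave 0 to 9. Where that left a group with 1 array, its spread was taken from the other groups. The interaction gave 0 in every alternative run. Kyoto day 1 against Wistar control gave 14, and 42 without Wistar control 2. None of 39 named genes that passed stayed past the threshold in all of 25 alternatives, and all 39 kept their direction wherever they were tested. Signals near the floor set only bounds, as on 12 of the 62 features.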
